A study of Equus caballus with 8 samples.

Results

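The enzymes and chaperones that modify and fold collagen chains inside the endoplasmic reticulum were followed with and without TGF-β2 in BM-MSCs, the mesenchymal stem cells of equine bone marrow. The genes were taken by name, with no threshold on their values: the prolyl 4-hydroxylase subunits P4HA1, P4HA2, P4HA3 and P4HB, the lysyl hydroxylases PLOD1, PLOD2 and PLOD3, and the collagen chaperones and helpers SERPINH1, FKBP10 and CRTAP. All 10 had a row among the 15266 named genes of the expression table, and all 10 were among the 14907 genes tested. BM-MSCs are stromal cells that grow attached to plastic, here from the sternal marrow of 4 Thoroughbred or Thoroughbred-cross horses with the letters D, J, L and W. For every horse there was an untreated library and a library of cells grown with 1 ng/ml human recombinant TGF-β2, so that 4 untreated and 4 TGF-β2-treated libraries were compared. The marrow of each horse was divided between the conditions, and all cultures shared low glucose medium with fetal bovine serum, antibiotics and basic fibroblast growth factor. The labels place the treatment from isolation to passage 3 or 4, whereas the paper's methods give 3 passages. With 1 culture per horse and condition, the horses are the replicates, and culture and horse cannot be told apart.

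Fibrillar collagens leave the cell as a triple helix that can form only after many prolines of each chain have been hydroxylated. Prolyl 4-hydroxylase is a tetramer of catalytic α subunits and of P4HB, which is also protein disulfide isomerase, and the lysyl hydroxylases prepare lysines for glycosylation and for the cross-links that later join fibrils. SERPINH1 (HSP47) binds the folded helix, FKBP10 (FKBP65) is a peptidyl-prolyl isomerase that also serves lysyl hydroxylation of the chain ends, and CRTAP is a non-catalytic part of the prolyl 3-hydroxylation complex.

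Reads counted per library ran from 40044240 to 57228675 in the untreated group and from 39184554 to 46634539 in the treated group. Values are the deposited normalized counts, in which the reads of a gene are divided by a size factor of the library, and each of the 10 genes had at least 5864 reads in every library. Fold changes are differences of mean log2(normalized count + 1). A gene was called differentially expressed at a Benjamini-Hochberg adjusted p under 0.05 over all genes tested and an absolute log2 fold change over 1, in limma without a term for the horse. The stromal marker THY1 (CD90) was called lower (log2 fold change -2.21, limma adjusted p 0.0494), while the other 5 stromal markers were not called. Haematopoietic markers summed to 40.0 to 389 normalized counts in untreated and 17.9 to 169 in treated libraries, with SPI1 listed at 0 in 1 library and no row for CD14 or CD34. Endothelial markers summed to 7.10 to 26.3 and 30.0 to 55.7, where KDR was called higher with a log2 fold change of 2.27 and PECAM1, VWF and TEK had no row. Cartilage and bone markers summed to 4013 to 9504 and 4078 to 17628, with SOX9 called higher at a log2 fold change of 1.21, ACAN listed at 0 in a library and no row for BGLAP. Within this list, 2 libraries stood apart in the bone markers IBSP and SP7, which were picked out after their values were seen. IBSP measured 1662 normalized counts in the untreated library of horse L and 9128 in the treated library of horse J, against 9.13 to 272 in the other 6 libraries. SP7 measured 3310 and 3705 in these, against 251 to 1236. The part of all these markers in the results was not tested. In bulk RNA, more cells of a type and more RNA per cell cannot be told apart.

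TGF-β2-treated BM-MSCs held more transcripts of most of the collagen hydroxylases and chaperones. SERPINH1 and PLOD2 rose the most, to 3.61 and 3.67 times the untreated mean, and P4HA2, P4HA3 and FKBP10 rose to 2.10, 2.06 and 2.16 times. These 5 of 10 were called higher, against 5.59% of all genes tested, and none of the 10 was called lower, against 5.87%. P4HB, PLOD1 and PLOD3 also passed the adjusted p but not the fold threshold, which made 8 of 10 at an adjusted p under 0.05, against 11.6% of all genes. With all 4 horses, P4HA1 was called only when the model held the horse as a block, and CRTAP passed no test.

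With that block, in which each treated library is set against the untreated library of the same horse, 6 of 10 were called higher, against 6.83%, and 9 of 10 passed the adjusted p, against 15.7%. The value was higher after treatment in every horse for all 10 genes, against 26.3% of all genes. All 4 treated libraries stood above all 4 untreated libraries in 8 of the 10, against 13.9%. The median log2 fold change was 1.08 over the 10 genes and 0.01 over all genes tested. The count depended on scaling: with every library scaled to the same total, 2 of 10 (PLOD2 and SERPINH1) were called higher, against 3.94%. That scaling moved the median gene by -0.31 on the log2 scale, and the median of the 10 genes lay 1.07 above the median gene under either scaling. A change of scaling moves the log2 fold changes of all genes nearly alike, so this distance could hardly change. Scaling to the same total also left 27.6% of all called genes higher, against 48.8% under the deposited normalization. In models without the block, leaving out horse D left 3 of the 10 called higher, against 2.44% of all genes, and leaving out horse W left 2, against 2.63%, so that the calls over all genes were also fewer. Without horse J 5 were called, against 6.06%, and without horse L 5, against 4.47%, P4HA1 taking the place of P4HA3.

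**Figure D1:**
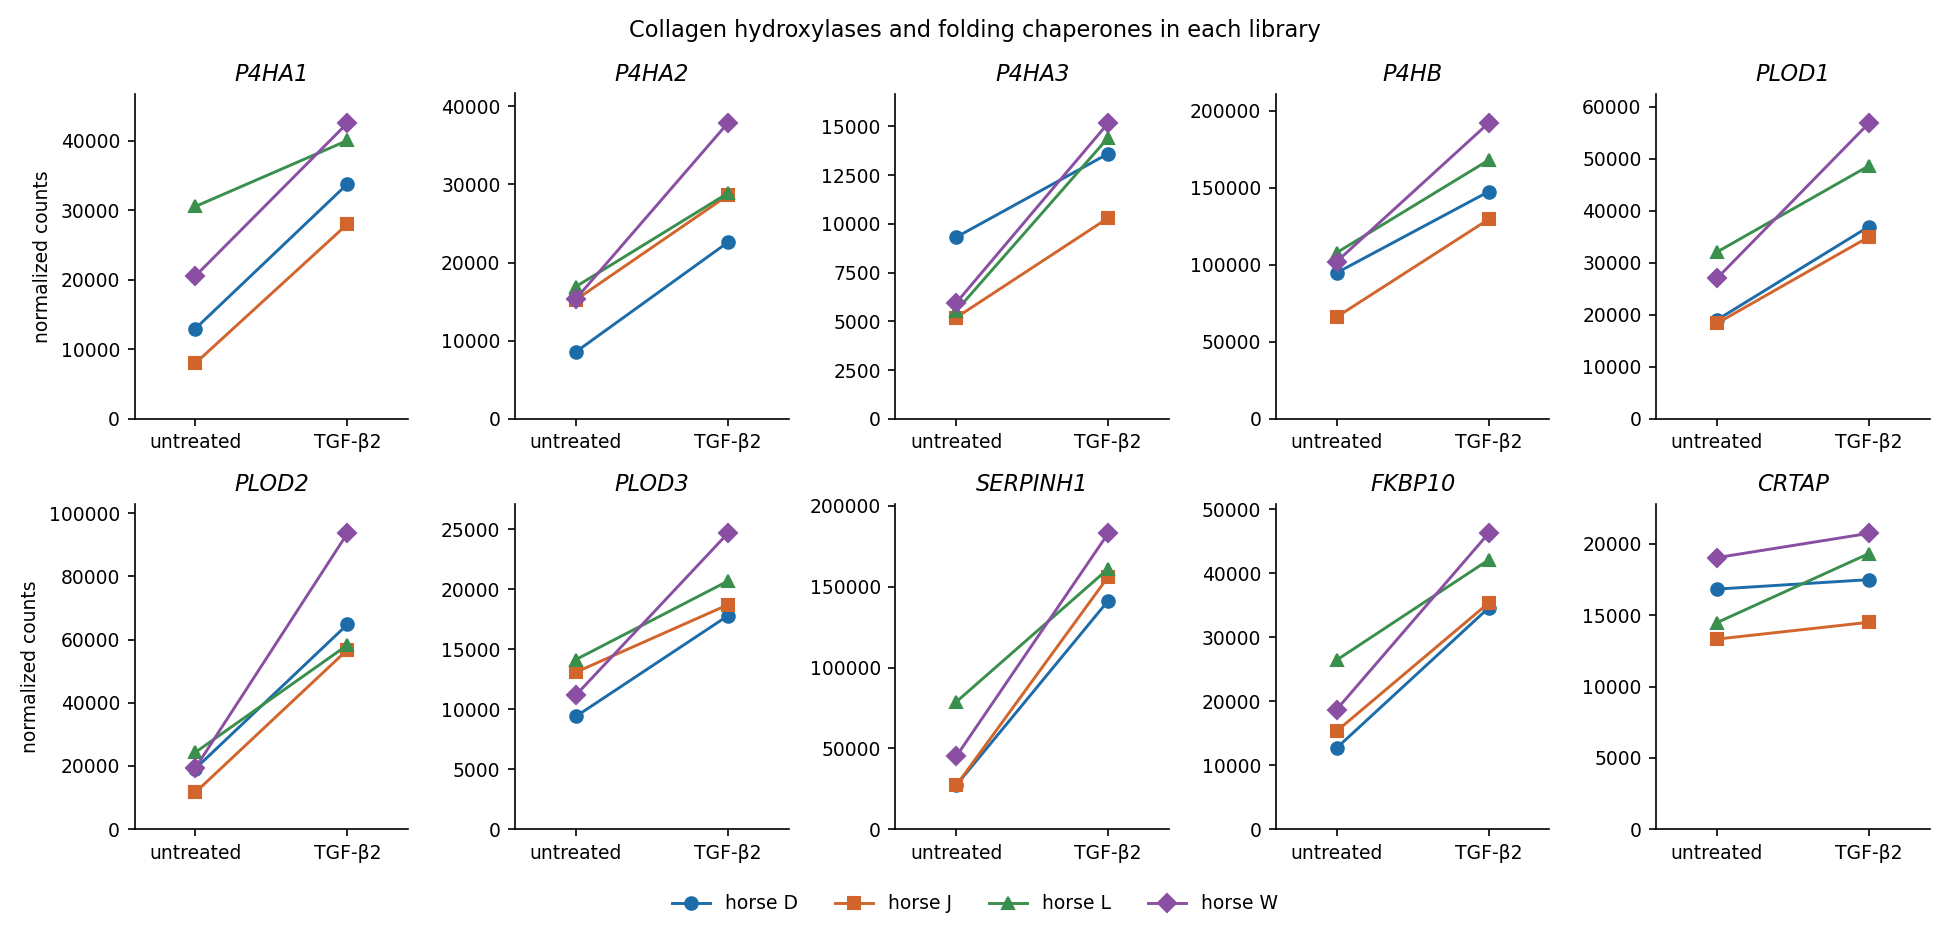
Normalized counts (vertical axes from 0, a separate scale for each gene) of the 10 genes without and with TGF-β2, 1 point per library, with a line joining the 2 libraries of a horse. Every line rises, the treated points lie above all untreated points in 8 genes, and in P4HA1 and CRTAP the groups overlap.

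**Figure D2:**
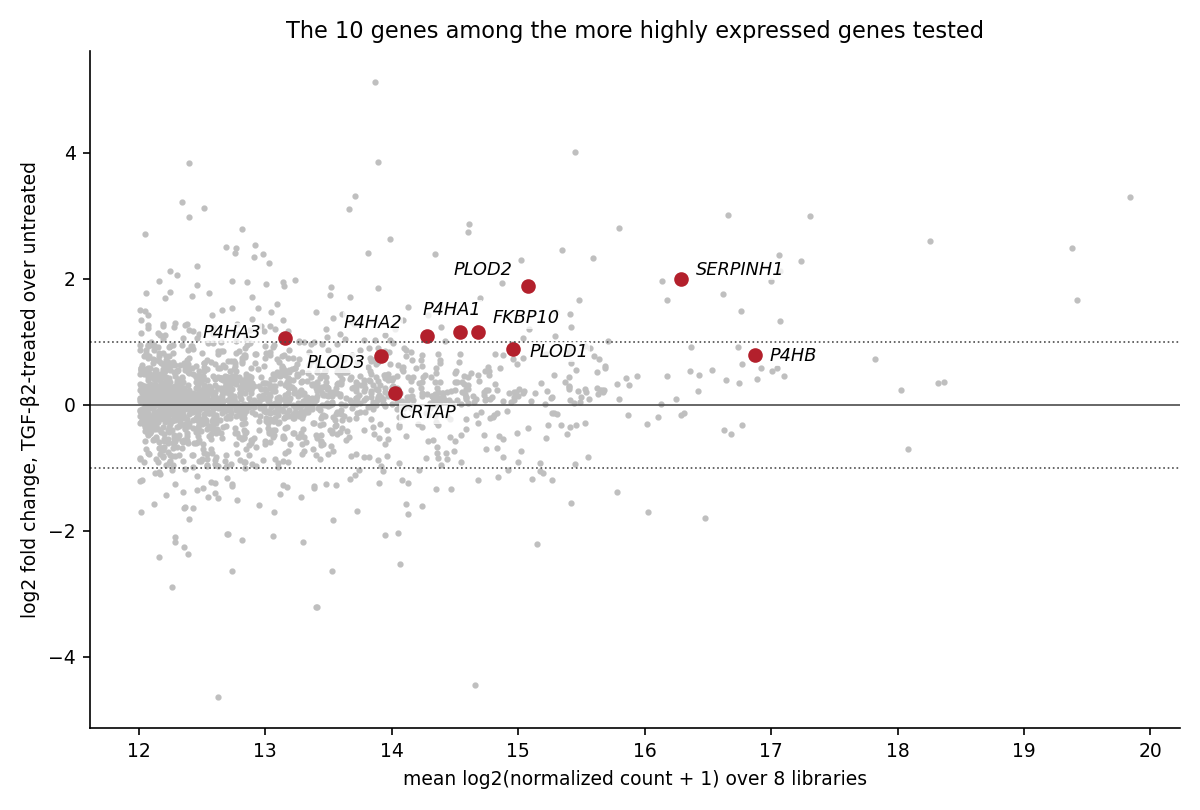
Log2 fold change (vertical axis) against mean log2(normalized count + 1) over the 8 libraries (horizontal axis) for the 1854 tested genes with a mean above 12 (grey) and the 10 genes (red), with dotted lines at a log2 fold change of 1 and -1. Between 0.18 (CRTAP) and 1.99 (SERPINH1), all 10 lie above 0.

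The 3 α subunits carry the catalytic site of prolyl 4-hydroxylase, and each pairs with P4HB. P4HA2 measured 8576, 15241, 16925 and 15358 normalized counts in the untreated libraries of horses D, J, L and W, and 22591, 28604, 28879 and 37854 in their treated libraries. It rose from 14025 ± 3713 (SD, n = 4) to 29482 ± 6290, a log2 fold change of 1.09 (SE 0.24) with a limma adjusted p of 0.0153. The groups did not overlap, with the untreated library of horse D the lowest and the treated library of horse W the highest. In models without the block, the call was lost without horse D, where the log2 fold change was 0.99, and without horse W, where the adjusted p was 0.0807. With the block it was lost without horse D and kept without horse W (adjusted p 0.0381).

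P4HA3, the third of the α subunits, measured 9314, 5194, 5538 and 5950 normalized counts in untreated horses D, J, L and W and 13596, 10300, 14416 and 15162 after treatment. Its log2 fold change was 1.07 (SE 0.20) with a limma adjusted p of 0.00908. Horse D was apart from the others without treatment and had the smallest increase, 0.55 on the log2 scale, but its untreated value still lay below the lowest treated one. In models without the block, the call was lost without horse L (log2 fold change 0.96, adjusted p 0.0585) and without horse W (log2 fold change 0.97, adjusted p 0.0780). With the block these log2 fold changes were the same. The call was again lost without L (adjusted p 0.0293) and without W (adjusted p 0.0524).

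P4HA1 had the largest ratio of the highest to the lowest untreated library among the 10 genes, 3.81. Untreated horses D, J, L and W gave 12999, 8024, 30568 and 20571 normalized counts of P4HA1, and the treated libraries 33801, 28031, 40056 and 42558. The untreated library of horse L exceeded the treated library of horse J, so the groups overlapped, although each horse had a higher value after treatment, by 1.38, 1.80, 0.39 and 1.05 on the log2 scale in D, J, L and W. The log2 fold change was 1.16 (SE 0.38), and the limma adjusted p was 0.0599 without the horse and 0.0187 with it as a block. Without horse L the log2 fold change was 1.41 and P4HA1 was called without the block (adjusted p 0.0496).

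P4HB, the β subunit, measured 94803, 66129, 107861 and 102026 normalized counts in untreated horses D, J, L and W and 147493, 129520, 167927 and 191987 after treatment. The groups did not overlap. Its log2 fold change of 0.79 (SE 0.22) passed the adjusted p in limma (0.0335) and stayed under the fold threshold. In models without the block, the adjusted p was 0.145 without horse D, 0.0933 without L and 0.122 without W. With the block these were 0.0777, 0.0436 and 0.0642. With libraries scaled to the same total and no block, the adjusted p was 0.0781.

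Among the lysyl hydroxylases, PLOD2, which hydroxylates lysines in the telopeptides at the chain ends, had the largest increase. PLOD2 measured 19164, 11651, 24314 and 19397 normalized counts in untreated horses D, J, L and W, and 64787, 56765, 58252 and 93587 after treatment. The lowest treated library, that of horse J, held more than double the highest untreated library, that of horse L. PLOD2 rose from 18632 ± 5225 (SD, n = 4) to 68348 ± 17183, a log2 fold change of 1.89 (SE 0.25) with a limma adjusted p of 0.00228. It ranked 481 by log2 increase among all genes tested, and it was called with each horse left out and under every other setting tried.

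PLOD1 and PLOD3 hydroxylate lysines of the helical part of the chain, and PLOD3 also has glycosyltransferase activity. PLOD1 measured 19037, 18383, 32078 and 27022 normalized counts in untreated horses D, J, L and W and 36981, 34995, 48659 and 56862 after treatment. PLOD3 measured 9389, 13072, 14125 and 11160 and, after treatment, 17773, 18690, 20663 and 24642. Neither gene's groups overlapped, although the highest untreated value of PLOD1, in horse L, came close to the lowest treated one, in horse J. The log2 fold change was 0.89 (SE 0.23) for PLOD1, with a limma adjusted p of 0.0287, and 0.78 (SE 0.16) for PLOD3, with 0.0115. Both stayed under the fold threshold. In models without the block, the adjusted p of PLOD1 exceeded 0.05 without horse D (0.120), L (0.0519) or W (0.111). That of PLOD3 did so without D (0.0543) or W (0.0828). With the block, the adjusted p of PLOD1 stayed under 0.05 with each horse left out (0.00922 to 0.0443). That of PLOD3 still exceeded 0.05 without D (0.0679) or W (0.0545).

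SERPINH1, the chaperone of the folded procollagen helix, had the largest log2 fold change of the 10 genes. SERPINH1 measured 27145, 27065, 78738 and 44993 normalized counts in untreated horses D, J, L and W, and 141337, 156179, 161084 and 183030 after treatment. The untreated libraries spread widely, with horse L far above D and J, and the treated libraries lay close together, all above the untreated ones. SERPINH1 rose from 44485 ± 24343 (SD, n = 4) to 160408 ± 17261. The log2 fold change was 1.99 (SE 0.34) with a limma adjusted p of 0.00567, and it ran from 1.03 in horse L to 2.53 in horse J. Like PLOD2, SERPINH1 was called with each horse left out and under every other setting tried.

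FKBP10 measured 12669, 15305, 26405 and 18677 normalized counts in untreated horses D, J, L and W and 34552, 35316, 42047 and 46200 after treatment. The order of the horses without treatment was close to that of SERPINH1, with L highest, and the groups did not overlap. FKBP10 rose from 18264 ± 5958 (SD, n = 4) to 39529 ± 5578, a log2 fold change of 1.16 (SE 0.23) with a limma adjusted p of 0.00959. In models without the block, the call was lost without horse D (adjusted p 0.0550) and without horse W (adjusted p 0.0700). With the block it was kept with each horse left out (adjusted p 0.0383 without D and 0.0423 without W).

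CRTAP stood apart from the other 9 genes. CRTAP measured 16831, 13325, 14482 and 19037 normalized counts in untreated horses D, J, L and W, and 17492, 14504, 19321 and 20740 after treatment. The groups overlapped, and the mean went from 15919 ± 2539 (SD, n = 4) to 18014 ± 2691, a difference smaller than the SD of either group. The log2 fold change was 0.18 (SE 0.16), with a 95% confidence interval of -0.18 to 0.54 and a limma adjusted p of 0.449. Its direction turned to -0.13 when libraries were scaled to the same total.

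**Figure D3:**
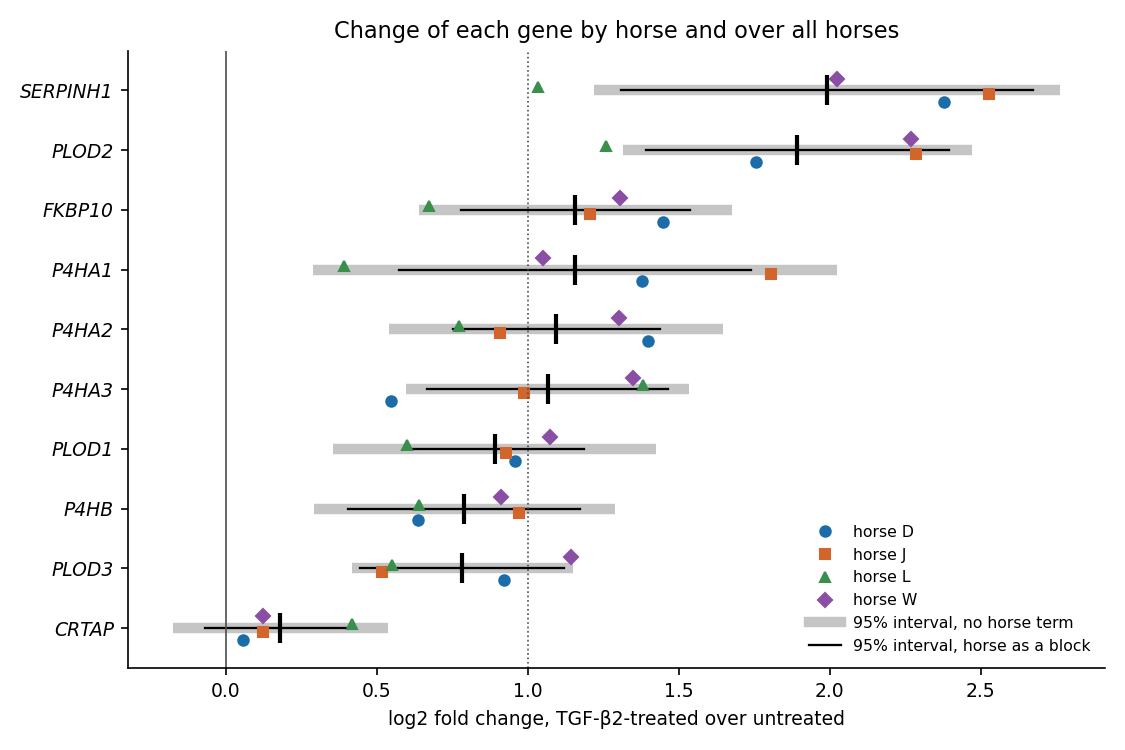
Log2 fold change after TGF-β2 (horizontal axis) of each gene in each horse (symbols) and over all horses (vertical ticks), with limma's 95% confidence intervals without the horse (grey bars) and with the horse as a block (black lines), and a dotted line at the fold threshold of 1. SERPINH1 and PLOD2 lie highest, the interval of CRTAP includes 0, and the triangle of horse L is the leftmost symbol in 6 genes.

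The highest untreated library was that of horse L for 8 of the 10 genes, and the lowest was that of horse J for 7 and of horse D for 3. The highest treated library was that of horse W for all 10. Horse L had the smallest log2 increase in 6 genes. The ratio of the highest to the lowest untreated library ran from 1.43 to 3.81 over the 10 genes, with a median of 1.88, and that of the treated libraries from 1.29 to 1.68, with a median of 1.48. This ratio was larger without treatment in 9 of the 10, CRTAP being the exception. The SD of the normalized counts themselves was larger after treatment in 7 of the 10. The difference in spread was not tested. None of the counts in this paragraph was set against all genes tested. A trait of these 10 genes and one of the libraries as a whole therefore cannot be told apart.

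Of all reads, the 10 genes together took 0.502% to 0.836% in untreated libraries (median 0.648%) and 1.12% to 1.35% in treated libraries (median 1.13%), without overlap. The chains of type I collagen, which these proteins act on, took a share that differed more between horses. COL1A1 and COL1A2 together took 1.35%, 0.616%, 4.73% and 2.19% of the reads in untreated horses D, J, L and W, and 4.90%, 5.21%, 6.39% and 7.01% after treatment. Horse L therefore had the highest type I collagen share without treatment, as it had the highest untreated value of 8 of the 10 genes.

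The ratio of 2 genes within a library does not depend on how libraries are scaled, so 16 such ratios were compared: 6 between isozymes and 10 of each gene over COL1A1. Exact two-sided permutation tests over the 70 ways to divide the 8 libraries were used, with Benjamini-Hochberg adjustment over the 16. The smallest p this design allows is 0.0286, the smallest adjusted p was 0.0653, and no ratio passed 0.05 after adjustment. A sign-flip test over the 4 paired horses cannot reach 0.05.

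The ratio of PLOD2 to either other lysyl hydroxylase was higher after treatment in every horse. The log2 ratio of PLOD2 to PLOD3 was 1.03, -0.17, 0.78 and 0.80 in untreated horses D, J, L and W and 1.87, 1.60, 1.50 and 1.93 after treatment. The difference was 1.11, higher in 4 of 4 horses, with an exact permutation p of 0.0286 (adjusted 0.0653) and no overlap of the groups. The log2 ratio of PLOD1 to PLOD2 went from 0.38 ± 0.28 (SD, n = 4) to -0.62 ± 0.25, with a difference that was negative in 4 of 4 horses (-1.36 to -0.66), the same exact p and adjusted p, and no overlap.

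The ratio of PLOD1 to PLOD3 differed by 0.11 (exact permutation p 0.714, adjusted 0.879). The 3 ratios between α subunits differed by 0.03 to 0.09, with horses on both sides of 0 and exact permutation p values of 0.914 to 0.971. Among them the log2 ratio of P4HA1 to P4HA3 spread from 0.48 to 2.46 in untreated libraries and from 1.31 to 1.49 in treated ones.

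COL1A1 itself rose by 2.50 on the log2 scale (SE 0.64, limma adjusted p 0.0267), more than any of the 10 genes. All 10 log2 ratios to COL1A1, which share this denominator, therefore had a lower mean after treatment. COL1A2 had a log2 fold change of 1.67, less than SERPINH1 (1.99) and PLOD2 (1.89), and ratios to COL1A2 were not tested. COL1A1 measured 198255, 106716, 931747 and 348458 normalized counts in untreated horses D, J, L and W. Of the 10 ratios, 8 were lower in all 4 horses, and those of P4HA3 and PLOD2 in 3. COL1A1 itself rose by 1.04 to 3.72 on the log2 scale over the 4 horses. The share of all genes with lower ratios to COL1A1 was not computed, so this count cannot be read as particular to the 10 genes. Among the 10 ratios, those of SERPINH1 and PLOD2 had the smallest differences. The log2 ratio of SERPINH1 to COL1A1 was -2.87, -1.98, -3.56 and -2.95 in untreated horses D, J, L and W and -3.17, -3.17, -3.57 and -3.48 after treatment, a difference of -0.50 (exact permutation p 0.171, adjusted 0.249). PLOD2 differed by -0.60 (exact permutation p 0.257, adjusted 0.343). The widest difference was that of CRTAP, -2.32, with an exact permutation p of 0.0286 (adjusted 0.0653). The SD of the log2 ratio over horses was 0.53 to 1.44 in untreated and 0.11 to 0.32 in treated libraries. This spread includes that of COL1A1, whose ratio of the highest to the lowest library was 8.73 without and 1.61 with treatment. The parts of COL1A1 and of the 10 genes in it were not tested.

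**Figure D4:**
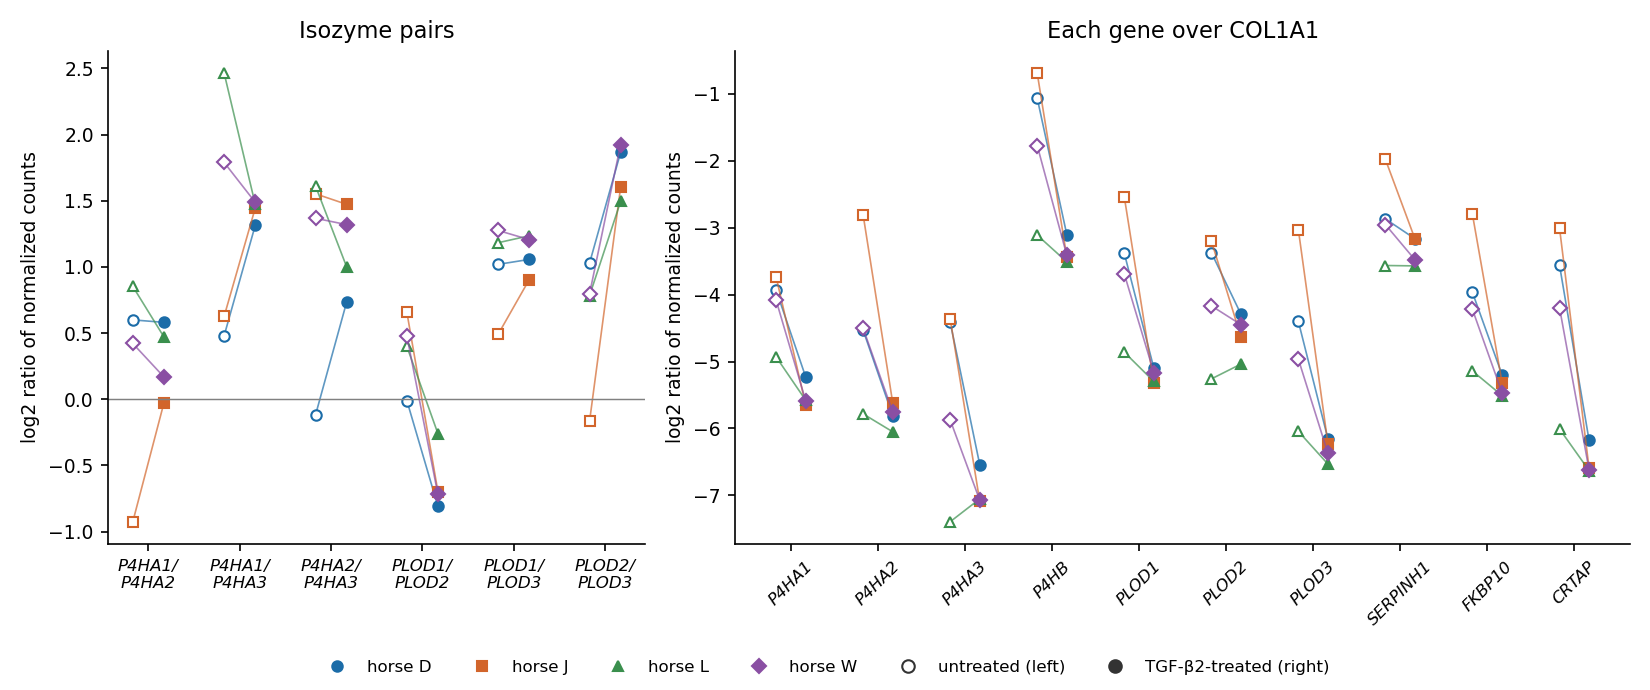
Log2 ratios of normalized counts within each library (vertical axes) for the 6 isozyme pairs (left panel) and for each gene over COL1A1 (right panel), with open symbols for untreated and filled symbols for TGF-β2-treated libraries and a line for each horse. PLOD1/PLOD2 falls and PLOD2/PLOD3 climbs in all 4 horses. In the right panel, where all ratios share COL1A1, the filled symbols cluster within each gene while the open ones spread, with horse L lowest. None of the 16 differences passed 0.05 after adjustment.

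Other enzymes, chaperones and exporters of procollagen were examined together with related genes, among them the transcription factor CREB3L1. In this list of 16, COLGALT2 and MIA3 had no row and 14 were tested. Of these, 5 were called higher, against 5.59% of all genes, and none lower, against 5.87%. The adjusted p was passed by 10, against 11.6%, and the median log2 fold change was 0.56, against 0.01 over all genes. P3H2, a collagen prolyl 3-hydroxylase, rose by 1.86 (SE 0.48, limma adjusted p 0.0270) from 194 ± 142 to 610 ± 212 normalized counts (SD, n = 4). CREB3L1, a transcription factor held in the endoplasmic reticulum membrane that drives collagen genes, rose by 1.86 (SE 0.47, adjusted p 0.0252). P3H1, which carries the catalytic site in the complex that contains CRTAP, rose by 1.21 (SE 0.24, adjusted p 0.0107), unlike CRTAP itself, though the difference between P3H1 and CRTAP was not tested. With libraries scaled to the same total 2 of the 14 were called, against 3.94%. In models without the block, none was called without horse D, against 2.44% of all genes called higher, and 1 without W, against 2.63%. Without J 2 were called, against 6.06%, and without L 4, against 4.47%.

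General folding genes of the endoplasmic reticulum, which serve all secreted proteins, were called higher in 4 of 20, against 5.59% of all genes, and lower in none, against 5.87%, and 13 passed the adjusted p, against 11.6%. Their median log2 fold change was 0.75. HYOU1, a large chaperone of the HSP70 family, rose by 1.20 (limma adjusted p 0.00495), and MANF and CRELD2, secreted proteins of the endoplasmic reticulum stress response, rose by 1.15 and 1.12. With libraries scaled to the same total none of the 20 was called, against 3.94% of all genes called higher.

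Of 6 hydroxylases that, like the collagen hydroxylases, use oxoglutarate and iron but act on other substrates, none was called higher, against 5.59% of all genes, and 2 were called lower, against 5.87%. EGLN3, which hydroxylates hypoxia-inducible factor, fell by 1.90 on the log2 scale (limma adjusted p 0.0305), from 183 ± 98.5 to 46.0 ± 18.9 normalized counts (SD, n = 4). P4HTM, a transmembrane prolyl 4-hydroxylase, fell by 1.30 (adjusted p 0.00664). The median of the list was -0.32.

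P4HA1, P4HA2 and PLOD2 are also known as targets of hypoxia-inducible factor, so 13 other hypoxia-responsive genes were examined. Of these, 4 were called higher, against 5.59% of all genes, and 2 lower, against 5.87%, with a median log2 fold change of 0.58. CA9, a carbonic anhydrase, SLC2A1, a glucose transporter, and BNIP3, a mitophagy receptor, rose by 2.07, 1.97 and 1.71 (limma adjusted p 0.00218, 0.00148 and 0.00676), whereas ADM (adrenomedullin) and NDRG1 fell by 2.55 and 1.24 (adjusted p 0.00771 and 0.0140). At a limma adjusted p under 0.05 without a fold threshold, 6 were higher, against 11.6% of all genes, and ADM and NDRG1 were lower. Of all 14907 genes tested, 3403 passed that adjusted p, 1734 of them higher and the rest lower. A part of hypoxia-inducible factor in these changes was not tested.

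Of the collagen chains, 23 were tested, 11 were called higher, against 5.59% of all genes, and 1 lower, against 5.87%, and their median log2 fold change was 1.67. COL11A1 rose by 3.31, COL5A1 by 3.00 and COL4A1 by 2.87 (limma adjusted p 0.0152, 0.0153 and 9.43e-04), and COL13A1 fell by 4.11 (adjusted p 0.0108). COL1A2 had a log2 fold change of 1.67 with a limma adjusted p of 0.0919 without the horse and 0.0414 with it as a block, the same pattern of calls as P4HA1.

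**Figure D5:**
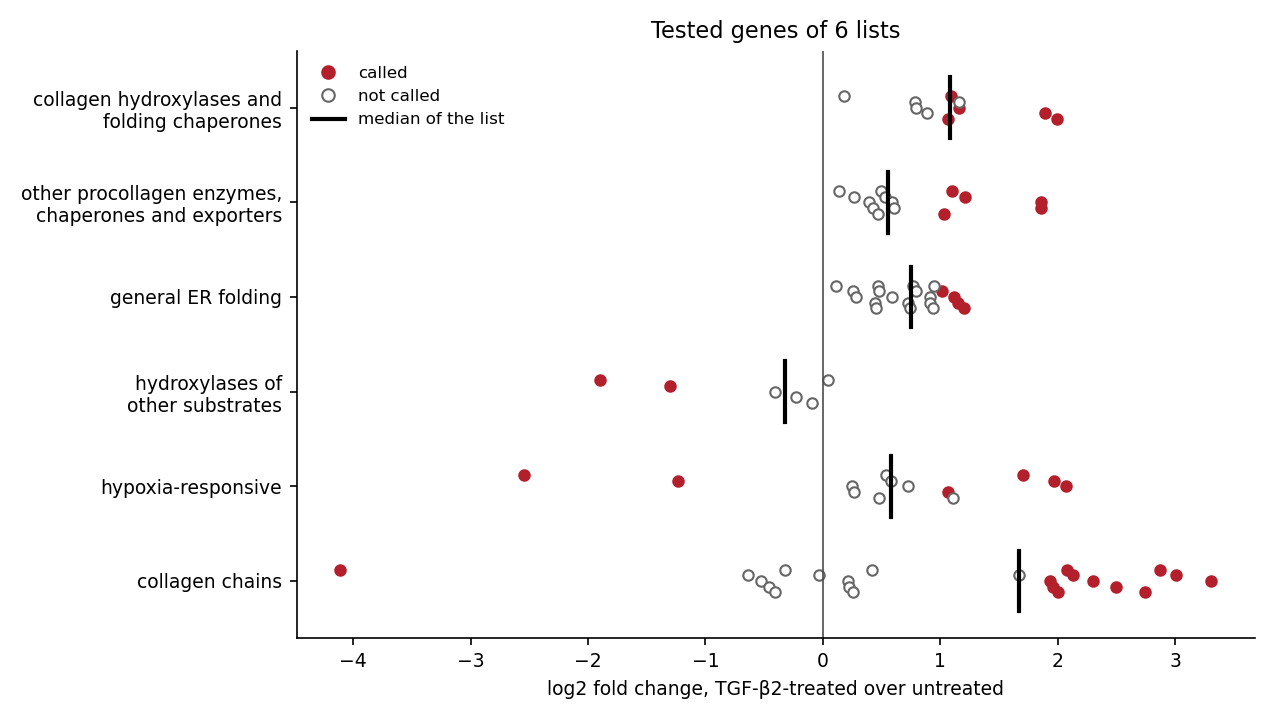
Log2 fold change after TGF-β2 (horizontal axis) of the tested genes of 6 lists (rows), with called genes filled in red, genes not called as open circles and the median of each list as a vertical bar; points are shifted vertically so that they can be told apart. The medians are 1.08 for the collagen hydroxylases and folding chaperones, 0.56 for the other procollagen genes, 0.75 for general folding genes of the endoplasmic reticulum (ER), -0.32 for hydroxylases of other substrates, 0.58 for hypoxia-responsive genes and 1.67 for collagen chains.

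The pattern of each gene over the 8 libraries was compared with those of all other tested genes by Pearson's r of log2(normalized count + 1), as a description in which the treatment and the horse are shared by all points. P4HA1 was most like COL1A2 (r = 0.995), FKBP10 most like the amino acid transporter SLC1A5 (r = 0.998), SERPINH1 most like GOLGA7 (r = 0.997) and PLOD2 most like NIPSNAP3A (r = 0.993). The closest genes for the others were LOC100057873 for P4HA2 (r = 0.991), CILP for P4HA3 (r = 0.982), MLNR for P4HB (r = 0.995), PAPSS1 for PLOD1 (r = 0.994), TMED7 for PLOD3 (r = 0.995) and GLRB for CRTAP (r = 0.985). The mean profile of the 10 genes was most like those of UCP1, LIN7B, COQ10B, PAPSS1 and LAGE3 (r = 0.992 to 0.995). Among the 10 themselves, SERPINH1 and FKBP10 were most alike (r = 0.987), and CRTAP and PLOD3 least (r = 0.348).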

How the data were processed

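Poly(A)-selected RNA of 8 libraries was sequenced. Per the labels and the paper's methods, the authors used Trimmomatic 0.36 for trimming, STAR 2.5.2b for alignment to EquCab 3.0 and featureCounts (Subread 1.5.2) for unique hits per gene. The strand setting is not given in the sources used here. They deposited normalized counts, a signal that is never negative: the reads of each gene divided by a size factor of the library. All values (100%, tolerance 0.1) were whole multiples of 1 step per library, which gave the reads used for depth and count tests. Of 15267 rows, 1 carried no gene name and was dropped.

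The main test was limma 3.58.1 (lmFit, eBayes with trend; R 4.3.3) on log2(normalized count + 1). Genes entered it if 4 or more libraries reached 10 normalized counts. The methods of the study name no term for the horse, so it was a block only in an alternative. The labels name the horse of each library, and libraries of the same horse deviated together from their group means (mean correlation 0.480, range 0.386 to 0.609). The mean for different horses, -0.159, was largely fixed by that value, because deviations from a group mean cancel out. Other alternatives were pseudocounts of 0.5 and 5, no filter and a filter at 50, scaling to the same total, by upper quartile or TMM, DESeq2 1.42.0 (also with the horse) and edgeR 4.0.16 on the recovered reads, no fold threshold, and each horse left out. Ratios were tested by listing all divisions of the libraries with numpy 2.4.6. The recovery of reads and the limma, DESeq2 and edgeR models (limma and DESeq2 also with the horse) were checked on simulated data. The ratio tests and the other alternatives were not. The genes named are the 10 members, COL1A1, COL1A2, of each list up to 3 called genes in each direction, and the genes of most similar profile. The members and lists were chosen with earlier results of these data known. No sequences or coordinates are printed, since a genome of this build was not used here.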

Additional observations from a re-analysis of the deposited data

How the results depend on the processing

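Each of the 10 log2 fold changes was recomputed under 21 alternative settings. Of the values obtained, 186 kept their direction and their side of the threshold, 15 kept the direction but lost the call, 7 gained a call and 2 turned direction. The 2 were those of CRTAP under scaling to the same total, -0.13 with the block and -0.13 without it, and CRTAP was past the threshold in no setting. PLOD2 and SERPINH1 were called in every setting.

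Of the 10 genes, 8 were called with no fold threshold, 2 under scaling to the same total and 2 under that scaling with the block, and 2 to 5 with 1 horse left out. Over all genes 1709 were called, 2108 with the horse as a block, 3403 with no fold threshold and 718 to 2442 with 1 horse left out, over models with and without the block (718 without D and 795 without W in those without it). Of the 14 partner genes of procollagen processing tested, 5 were called, 10 with no fold threshold, 2 under scaling to the same total with or without the block, and 0 to 4 with 1 horse left out. The combinations of the block with scaling to the same total and with leaving out a horse were added after the values were seen. With all 4 horses, the block changed no call of the 10 genes or the type I collagen chains besides P4HA1 and COL1A2. With 1 horse left out, the block also kept calls of P4HA2 and FKBP10 that were lost without it. A log2 fold change near 1 puts P4HA2, P4HA3 and FKBP10 close to the fold threshold. With 4 horses, the ratio tests could not pass 0.05 after adjustment unless more of the 16 ratios reached the smallest p. Each of the 10 genes had at least 5864 reads in each library.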
